A study of Mus musculus with 12 samples.

Results

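The genes described here make malonyl-CoA, remove it, or turn it into fatty acids. They are 10 of the 17837 named genes measured in ventricle RNA of mice with and without the alpha 2 catalytic subunit of AMP-activated protein kinase (AMPK), a kinase that responds to falling cellular energy. Acaca and Acacb encode the acetyl-CoA carboxylases, Mlycd encodes malonyl-CoA decarboxylase, and Acly, Fasn, Scd1, Scd2, Elovl5, Elovl6 and Srebf1 encode enzymes and a regulator of fatty acid synthesis. Members were chosen by gene symbol in the platform's annotation, which gave 18 of the 41174 probes. That rule uses no measured value, but the members were chosen with earlier results of these data known. All 10 genes and 17 of the 18 probes passed the filter on missing values. The probe left out was number 14868 of Acly, which had 4 WT and 4 KO values between -0.20 and 0.27.

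Both groups were mice of strain C57B6 aged 7 months. The WT group held 6 control animals that were AMPK alpha 2 +/+, and the KO group held 6 animals that were AMPK alpha 2 -/-. All were fed standard chow and anaesthetised with pentobarbital before heart removal. Neither the sex of the animals nor which exons were deleted is labelled. Each animal had 1 array with 2 colours, on which its cardiac ventricle RNA was hybridised against a commercial reference RNA pooled from 11 mouse cell lines. Every value below is therefore a log2 ratio of heart over reference, and 0 means equal signal in both. Heart RNA carried Cy3 in replicates 1 to 3 of each genotype and Cy5 in replicates 4 to 6.

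Malonyl-CoA has a pair of roles. It is the building block from which fatty acid synthase assembles palmitate, and it blocks carnitine palmitoyltransferase 1, the step that admits long-chain fatty acids to mitochondria for oxidation. AMPK phosphorylates and inactivates both carboxylases, and in heart muscle, which burns mostly fatty acids, the carboxylase encoded by Acacb sits at the outer mitochondrial membrane beside that transferase. The arrays measured RNA and carry no information on phosphorylation or enzyme activity.

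Promoter sequences are shown for 4 members because several of these genes are known targets of the sterol regulatory element binding protein SREBP-1 and of the liver X receptor LXR. RefSeq promoters on build GRCm38.p6 were at hand for 8 of the 10 members, as 10 sequences of which 3 belong to Srebf1. Scd1 and Scd2 are named only. Each sequence holds the 250 bases before the annotated start and is written 5′ to 3′ on the gene's own strand. Capitals mark the LXR element of mouse Srebf1 and Fasn (TGACC, then 4 bases of any kind, then GTAACC) and the CCAAT box (CCAAT or its reverse complement ATTGG). Fasn lies at chr11:120824548-120824797 on the minus strand, the Srebf1 promoter shown at chr11:60210472-60210721 on the minus strand, Elovl6 at chr3:129532136-129532385 on the plus strand and Mlycd at chr8:119394644-119394893 on the plus strand.
Fasn: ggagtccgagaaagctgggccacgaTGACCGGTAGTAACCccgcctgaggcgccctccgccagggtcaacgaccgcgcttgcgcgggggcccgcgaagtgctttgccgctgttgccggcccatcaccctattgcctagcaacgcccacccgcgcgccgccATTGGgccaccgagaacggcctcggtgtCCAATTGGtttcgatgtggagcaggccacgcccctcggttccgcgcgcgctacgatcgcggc
Srebf1: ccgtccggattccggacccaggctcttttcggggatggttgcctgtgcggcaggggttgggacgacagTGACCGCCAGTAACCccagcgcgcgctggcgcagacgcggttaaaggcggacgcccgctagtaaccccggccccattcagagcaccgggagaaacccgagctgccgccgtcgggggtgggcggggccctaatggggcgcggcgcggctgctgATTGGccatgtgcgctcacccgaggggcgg
Elovl6: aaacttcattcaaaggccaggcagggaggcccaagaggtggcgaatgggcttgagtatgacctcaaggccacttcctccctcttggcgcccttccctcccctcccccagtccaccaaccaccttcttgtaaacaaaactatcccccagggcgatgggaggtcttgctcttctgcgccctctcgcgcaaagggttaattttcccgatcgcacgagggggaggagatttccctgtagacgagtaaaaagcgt
Mlycd: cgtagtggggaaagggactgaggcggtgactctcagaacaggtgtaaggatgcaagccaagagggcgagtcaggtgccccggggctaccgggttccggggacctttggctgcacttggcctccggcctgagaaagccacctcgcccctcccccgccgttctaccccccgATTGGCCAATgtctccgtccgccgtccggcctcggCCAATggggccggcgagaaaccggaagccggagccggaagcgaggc
The LXR element lay at -225 to -211 in Fasn and at -182 to -168 in Srebf1. The searched pattern is the element of these genes, so both matches were given in advance and show no enrichment among members. It lay in no other of the 10 sequences, and 12 of the 32851 promoters of the RefSeq table held it (0.0365%). A CCAAT box lay in promoters of 5 members, Acacb, Elovl5, Fasn, Mlycd and Srebf1, and in 33.8% of all promoters. Mlycd held 3 CCAAT boxes within -81 to -42. Fasn also held 3, of which those at -62 to -58 and -59 to -55 overlap each other. Of the other motifs searched on both strands, the GC box GGGCGG lay in Acly and Srebf1 (32.7% of all promoters) and the E-box CACGTG in Elovl5 (6.02%). The sterol regulatory element was searched only as the strict pattern TCAC, 1 base of any kind, CCAC. That pattern lay in none of the 10 sequences (1.05% of all promoters). Looser forms of the element were not searched, so the result does not show that the element is absent. No match of one motif overlapped a match of another. Elovl6 is shown because none of the 5 motifs as searched lay in its window. The window of Acaca, which is not shown, held none of them either.

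Heart muscle genes were high on the arrays. Every one of 12 genes on the ventricular cardiomyocyte list lay above the reference on all arrays, and 9 markers of dividing cells lay below. A ratio to cell-line RNA does not by itself tell ventricle from atrium, and atrial markers were high in several hearts, as given below. Prkaa2, the targeted gene, had 1 probe, at 3.99 to 4.23 in the 6 WT hearts and 3.58 to 4.27 in 5 KO hearts, and its difference did not pass (-0.18 ± 0.10, SE, limma adjusted p = 0.938). It is not known here whether the probe lies in the deleted part, so it does not check the labels. Across all 25821 features, 1 differed between the genotypes after adjustment (0.00387%), and it was Hyi, which is no member. The share of empty cells was 39.2% in WT replicate 3 and 41.7% in KO replicate 4, where 6 and 5 member probes had no value. At an unadjusted p under 0.05, 5.33% of features differed.

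A pair of arrays stood apart in RNA of other tissues, and several members were high on the same arrays. In WT replicate 2 the fat-cell genes Adipoq, Cidec and Ucp1, which encode adiponectin, a lipid droplet protein of fat cells and the uncoupling protein of brown fat, were at 3.93, 3.45 and 3.81. On the 10 arrays other than WT replicate 2 and KO replicate 6 they did not exceed 0.39, 0.52 and 0.32. KO replicate 6 also lay above those 10 arrays for Adipoq (0.83) and Cidec (1.01), but not for Ucp1 (0.20). In KO replicate 6 the liver genes Alb and Fgb were at 5.90 and 6.02 and the lung genes Sftpc and Scgb1a1 at 6.13 and 4.76. Single genes of these lists were also high elsewhere. Ahsg of the liver list was at 3.76 in WT replicate 2 and 3.99 in KO replicate 1, against 5.35 in KO replicate 6. Sftpc was at 2.19 in WT replicate 3 and 1.29 in KO replicate 3. Over the whole fat-cell list, of which 7 of 10 genes were measured, the mean deviation from each gene's median was -0.13 to 1.58 in WT, with the highest value in replicate 2, and -0.25 to 0.35 in KO. Fabp4, Cidea and Plin4 of that list were above the reference on all arrays, and Lep was near 0 on WT replicate 2 and KO replicate 6 (0.07 and 0.39). On both arrays Fabp4, Cidea, Plin4 and Lep lay inside the range of the other 10. Relative to the median of those 10 they were at 0.012, -0.28, 0.35 and 0.011 in WT replicate 2. The liver list (7 of 8 measured) ran from -0.31 to 0.21 in WT and from -0.19 to 4.67 in KO. The lung list (6 of 7 measured) ran from -0.13 to 0.21 in WT and from -0.073 to 2.79 in KO, with KO replicate 6 highest in both lists. For each member, KO minus WT is given with and without them below.

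No difference between KO and WT hearts passed the test for any of the 10 members. The count of members that passed at an adjusted p of 0.05 was 0 with limma's test over all 25821 features. At an unadjusted p under 0.05 it was also 0, where 5.33% of all features differed. By sign alone, 6 members were higher in KO and 4 lower, and 49.7% of all features were higher. The median difference of the members was 0.030 on the log2 scale, against -0.00090 for all features. The ranges of the genotypes overlapped for all 10 members, each with at least 5 values per genotype, and among all features with as many values 0.407% did not overlap. Standard errors ran from 0.086 for Acly to 0.66 for Scd1, so the size of difference that could be seen varied between members.

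**Figure D1:**
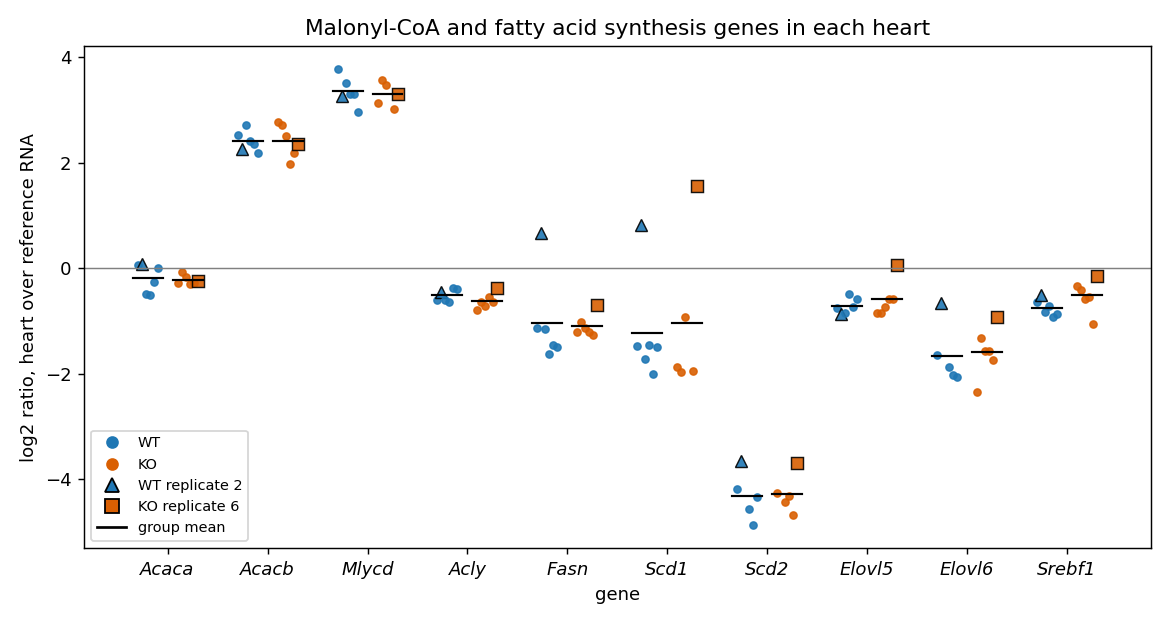
Log2 ratio of heart over reference RNA (vertical axis) for the 10 members (horizontal axis), with 1 point per heart in WT and KO and a line at each group mean. WT replicate 2 (triangle) and KO replicate 6 (square) lie above the other hearts for Scd1, at 0.82 and 1.55, and WT replicate 2 does so for Fasn, at 0.66. Acacb and Mlycd are the members above the reference in every heart.

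Set against the reference cell lines, the malonyl-CoA genes of muscle were high and the lipogenic genes low. In WT hearts 2 members, Acacb and Mlycd, were above the reference (background 21.9% of features), 7 were below it (23.8%) and Acaca was not called. In KO hearts the same 2 members were above (22% of features), 7 were below (23.5%) and Scd1 was not called. Acaca counted among the 7 in KO hearts and Scd1 among the 7 in WT hearts, and neither call was stable when single arrays were left out. This test of a genotype mean against 0 leaves out the spread of the reference itself. In bulk RNA such as this, fewer cells of a type and less RNA per cell cannot be told apart.

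Acacb, the mitochondrial carboxylase, was high in every heart of both genotypes. Its gene-level log2 ratio, which averages 2 probes, was 2.52, 2.26, 2.73, 2.42, 2.36 and 2.19 in WT replicates 1 to 6. In KO replicates 1 to 6 it was 2.77, 2.73, 2.51, 1.97, 2.18 and 2.35. The KO hearts thus included both the highest and the lowest value. The WT mean was 2.41 ± 0.19 and the KO mean 2.42 ± 0.31 (SD, n = 6 each). KO minus WT was 0.0089 ± 0.11 (SE, limma adjusted p = 0.995, 95% interval -0.23 to 0.25). Without WT replicate 2 and KO replicate 6 it was -0.098 ± 0.11 (SE, limma adjusted p = 0.987).

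The probes of Acacb gave very different ratios to the reference. Probe 19347 was at 5.03, 4.76, 5.05, 4.63, 4.73 and 4.52 in WT replicates 1 to 6 and at 5.07, 5.06, 5.07, 4.30, 4.27 and 4.45 in KO replicates 1 to 6. On this probe the 6 hearts labelled with Cy3 all lay above the 6 labelled with Cy5, in both genotypes (means 5.01 and 4.48), and dye orientation is a term of the fit. Probe 12544 lay between -0.25 and 0.48 on the 9 arrays that had a value, and was not called against the reference in either genotype (limma adjusted p = 0.669 in WT and 0.234 in KO). Neither probe passed between genotypes, with -0.084 ± 0.10 for probe 19347 and 0.13 ± 0.16 for probe 12544 (SE, limma adjusted p = 0.956 and 0.960). The gene-level ratio of Acacb is therefore a mean over a high and a near-zero probe, and the labels do not say which transcripts each probe detects.

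Acaca, the cytosolic carboxylase that supplies fatty acid synthesis, lay near the reference. Gene-level values over 5 probes were 0.070, 0.091, -0.49, -0.50, -0.26 and 0.013 in WT replicates 1 to 6. In the KO replicates they were -0.29, -0.067, -0.16, -0.29, -0.28 and -0.24. The KO hearts fell inside the range of the WT hearts, with a smaller spread (SD 0.090 against 0.27). The difference was -0.043 ± 0.12 (SE, limma adjusted p = 0.988, 95% interval -0.30 to 0.21). Without WT replicate 2, the highest heart, and KO replicate 6 it was 3.04e-05. The call below the reference in KO hearts (-0.22 ± 0.083, SE, limma adjusted p = 0.0426) was lost when any single KO array was left out (adjusted p = 0.0545 to 0.120).

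Of the 5 Acaca probes, 4 scattered around 0, with all their values between -0.56 and 0.76. Probe 35355 was below the reference on all 11 arrays with a value, from -1.61 to -0.22, and passed in both genotypes (-0.84 ± 0.20 in WT and -0.83 ± 0.18 in KO, SE, limma adjusted p = 0.00293 and 0.00156). Probe 28856 had the smallest p among all member probes for KO minus WT (-0.33 ± 0.14, SE, limma unadjusted p = 0.0402), which did not pass after adjustment (limma adjusted p = 0.903). Its WT values were 0.34, -0.081, -0.076, 0.44 and 0.090 in replicates 1, 2, 4, 5 and 6. Its KO values were -0.078, -0.035, -0.18, -0.10 and -0.54 in replicates 2 to 6, so the genotypes overlapped and KO replicate 6 was lowest. The other 4 Acaca probes gave differences between -0.13 and 0.12.

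**Figure D2:**
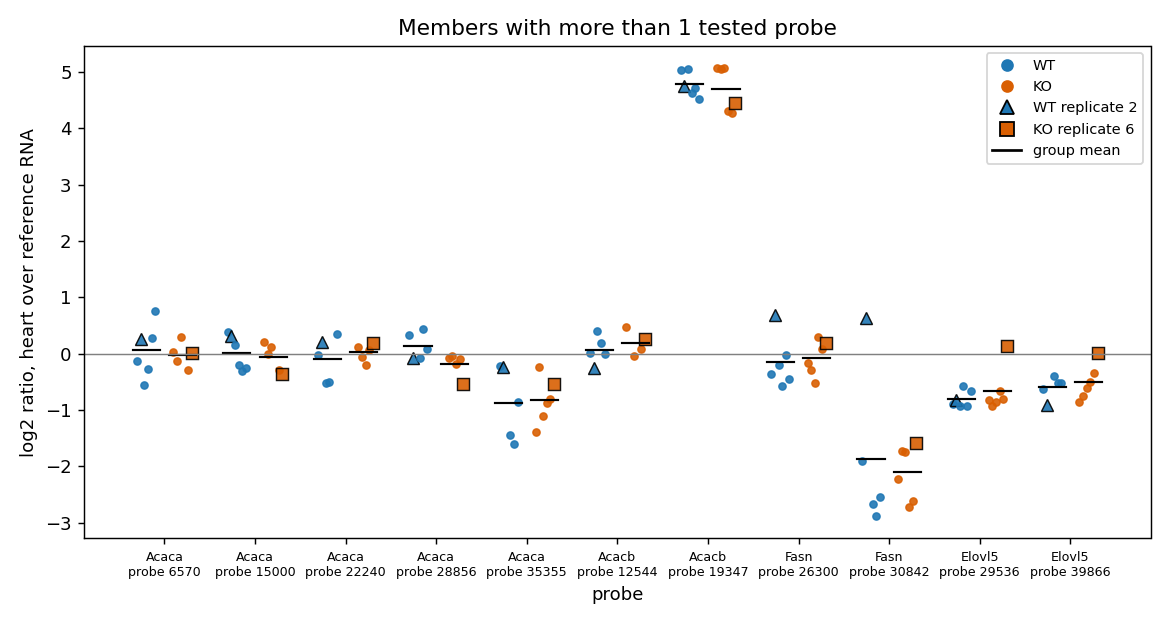
Log2 ratio of heart over reference RNA (vertical axis) for each tested probe of the 4 members that have more than 1 (horizontal axis), with 1 point per heart and a line at each group mean. Probe 19347 of Acacb lies between 4.27 and 5.07 and probe 12544 between -0.25 and 0.48, and probe 30842 of Fasn lies between -2.88 and 0.63, with WT replicate 2 (triangle) highest.

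Mlycd, whose product degrades malonyl-CoA back to acetyl-CoA, was also high in every heart measured. Its 1 probe gave 3.78, 3.26, 3.51, 3.31, 3.30 and 2.97 in WT replicates 1 to 6. In KO replicates 1, 2, 3, 5 and 6 it gave 3.13, 3.58, 3.48, 3.03 and 3.31, and KO replicate 4 had no value. All 5 KO hearts lay inside the WT range. The WT mean was 3.35 ± 0.27 (SD, n = 6) and the KO mean 3.30 ± 0.23 (SD, n = 5). KO minus WT was -0.079 ± 0.13 (SE, limma adjusted p = 0.973, 95% interval -0.36 to 0.20). Without WT replicate 2 and KO replicate 6 the difference was -0.22, which did not pass either.

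Acly encodes the ATP citrate lyase, which makes acetyl-CoA from citrate in the cytosol. On its tested probe it was below the reference in every heart and was the most even of the members. Probe 14868, left out for missing values, lay around the reference, between -0.20 and 0.27. Its tested probe gave -0.61, -0.44, -0.60, -0.65, -0.38 and -0.40 in WT replicates 1 to 6 and -0.79, -0.63, -0.72, -0.55, -0.64 and -0.36 in KO replicates 1 to 6. Of the KO hearts, replicates 1 and 3 lay below all WT hearts and replicate 6 above all of them. The WT mean was -0.51 ± 0.12 and the KO mean -0.62 ± 0.15 (SD, n = 6 each). The difference of -0.10 ± 0.086 (SE, limma adjusted p = 0.947) had a 95% interval of -0.29 to 0.083, and it was -0.11 without WT replicate 2 and KO replicate 6. The residual SD of Acly was at the 10.7th percentile of all features.

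Fasn encodes fatty acid synthase, the enzyme that builds palmitate from malonyl-CoA. In WT replicates 1 to 6 its gene-level values were -1.13, 0.66, -1.14, -1.63, -1.45 and -1.50. In the KO replicates they were -1.20, -1.01, -1.14, -1.21, -1.27 and -0.70. The WT heart of replicate 2 was the only heart above the reference, and every other heart lay at -0.70 or lower. The WT SD was 0.85 and the KO SD 0.21, and the residual SD of Fasn was at the 98.4th percentile of all features.

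The genotype difference of Fasn was -0.056 ± 0.29 (SE, limma adjusted p = 0.993, 95% interval -0.69 to 0.58). Without WT replicate 2 and KO replicate 6 it was 0.15 ± 0.097 (SE, limma adjusted p = 0.975), of opposite sign and with a smaller error. Both means stayed below the reference in that setting, at -1.35 in WT and -1.19 in KO. Probe 30842 carried most of the range: it was at -1.90, 0.63, -2.67, -2.88 and -2.55 in WT replicates 1, 2, 4, 5 and 6, and between -2.72 and -1.58 in the 6 KO hearts. Probe 26300 lay between -0.58 and 0.69, with WT replicate 2 highest on both probes. Probe 26300 was not called against the reference in either genotype (limma adjusted p = 0.445 in WT and 0.760 in KO).

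Scd1 and Scd2 encode stearoyl-CoA desaturases, which place the first double bond in saturated chains. Scd1 was at -1.47, 0.82, -1.72, -1.46, -2.00 and -1.49 in WT replicates 1 to 6. In KO replicates 1, 2, 3, 5 and 6 it was at -1.87, -1.96, -0.92, -1.96 and 1.55, with no value for KO replicate 4. WT replicate 2 and KO replicate 6 were the only hearts above the reference. The residual SD of Scd1 was at the 99.8th percentile of all features. The difference was 0.20 ± 0.66 (SE, limma adjusted p = 0.991), and its 95% interval of -1.24 to 1.64 leaves room for large differences in either direction.

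Without these 2 hearts the difference of Scd1 was -0.11 ± 0.23 (SE, limma adjusted p = 0.991), of opposite sign. The level of Scd1 in KO hearts then was -1.72 ± 0.17 (SE) and below the reference (limma adjusted p = 7.71e-06), while with all hearts it was -1.02 ± 0.49 and not called (adjusted p = 0.118). In WT hearts Scd1 was below the reference with all arrays (-1.22 ± 0.45, SE, limma adjusted p = 0.0402). Leaving out WT replicate 1, 3, 4, 5 or 6 alone took that call away (adjusted p = 0.0901 to 0.129), as did leaving out KO replicate 3 (adjusted p = 0.0501).

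Scd2 was far below the reference in every heart with a value. It was at -4.18, -3.65, -4.56, -4.87 and -4.34 in WT replicates 1, 2, 4, 5 and 6. In KO replicates 1, 3, 4, 5 and 6 it was at -4.25, -4.43, -4.32, -4.67 and -3.68. WT replicate 2 and KO replicate 6 were again the highest of their groups. The WT mean was -4.32 ± 0.46 and the KO mean -4.27 ± 0.37 (SD, n = 5 each). KO minus WT was 0.052 ± 0.22 (SE, limma adjusted p = 0.993, 95% interval -0.43 to 0.54). Without those 2 hearts it was 0.0070 ± 0.16 (SE, limma adjusted p = 0.999).

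Elovl6 encodes the elongase of palmitate and other saturated chains, and Elovl5 an elongase of polyunsaturated chains. Elovl6 was at -1.64, -0.66, -1.87, -2.03 and -2.06 in WT replicates 1, 2, 4, 5 and 6 and at -2.35, -1.32, -1.56, -1.58, -1.73 and -0.93 in KO replicates 1 to 6. All hearts were below the reference, and WT replicate 2 and KO replicate 6 were highest. The difference was 0.057 ± 0.28 (SE, limma adjusted p = 0.993, 95% interval -0.55 to 0.66). Without those 2 hearts it was 0.17 ± 0.21 (SE, limma adjusted p = 0.987). With KO replicate 1, the lowest heart, left out as well it was 0.29 ± 0.12 (SE, limma adjusted p = 0.994). The WT SD was 0.58 and the KO SD 0.47.

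Elovl5 varied little apart from KO replicate 6. Gene-level values were -0.76, -0.87, -0.86, -0.48, -0.73 and -0.59 in WT replicates 1 to 6 and -0.85, -0.85, -0.73, -0.58, -0.58 and 0.070 in KO replicates 1 to 6. KO replicate 6 was the only heart at or above the reference, on both probes (0.13 and 0.0060). The difference was 0.13 ± 0.12 (SE, limma adjusted p = 0.952, 95% interval -0.12 to 0.38), and without WT replicate 2 and KO replicate 6 it was 0.0094.

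Srebf1 encodes SREBP-1, which activates genes of fatty acid synthesis. Its probe gave -0.64, -0.50, -0.83, -0.71, -0.93 and -0.87 in WT replicates 1 to 6. In KO replicates 1 to 6 it gave -0.33, -0.41, -0.58, -0.54, -1.06 and -0.14. All hearts were below the reference, 3 KO hearts lay above every WT heart, and KO replicate 5 was the lowest of the 12. The WT mean was -0.75 ± 0.16 and the KO mean -0.51 ± 0.31 (SD, n = 6 each). The difference of 0.24 ± 0.13 (SE) had the smallest p of the 10 members (unadjusted p = 0.103, limma adjusted p = 0.938), with a 95% interval of -0.054 to 0.52. Without WT replicate 2 and KO replicate 6 it was 0.16 ± 0.13 (SE).

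**Figure D3:**
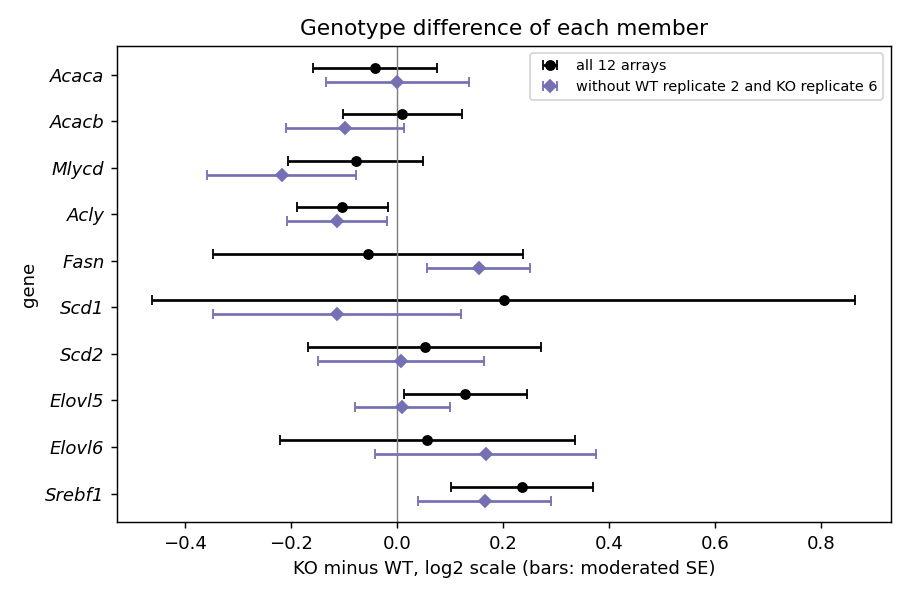
KO minus WT on the log2 scale (horizontal axis) for each member (vertical axis), with bars for the moderated standard error, over all 12 arrays and without WT replicate 2 and KO replicate 6. Fasn moves from -0.056 to 0.15 and Scd1 from 0.20 to -0.11, and the bar of Scd1 shortens from 0.66 to 0.23. No member passed in either setting.

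On the 2 arrays with markers of other tissues, members stood above the other hearts to unequal degrees. Against the median of the other 10 hearts, WT replicate 2 was higher by 2.54 for Scd1, 1.87 for Fasn, 1.07 for Elovl6 and 0.73 for Scd2. KO replicate 6 was higher by 3.27 for Scd1, 0.80 for Elovl6, 0.80 for Elovl5, 0.70 for Scd2, 0.53 for Srebf1 and 0.51 for Fasn. Of the 10 members, 3 lay over 1 above that median in WT replicate 2, as did 0.501% of 25734 features. In KO replicate 6 it was 1 member, Scd1, against 1.46% of features.

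The malonyl-CoA genes of muscle did not share this. Acacb deviated by -0.21 in WT replicate 2 and -0.11 in KO replicate 6, and Mlycd by -0.046 and 0.0040. In WT replicate 2 Acly, Acaca and Srebf1 deviated by 0.18, 0.36 and 0.18, and Elovl5 by -0.14. Over the 12 ventricular cardiomyocyte genes the mean deviation from each gene's median was -0.023 in WT replicate 2 and -0.15 in KO replicate 6, inside the range of all hearts (-0.21 to 0.28). Most single genes lay below the median of the other 10 hearts on both arrays. The lowest were Myl3 at -0.47 in WT replicate 2, and Mybpc3 at -0.57 and Ckm at -0.51 in KO replicate 6. Tnni3, cardiac troponin I, was at -0.32 and -0.31. Those above that median were Pln, the phospholamban gene, at 0.63 and Tnnt2 at 0.12 in WT replicate 2. In KO replicate 6 they were Ttn, the titin gene, at 0.20, Ryr2 at 0.028 and Tnnt2 at 0.013. The part of fat, liver or lung RNA in the values of these 2 hearts was not tested.

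Atrial markers were high in several hearts. The atrial list deviated by 2.80 in WT replicate 2 and 1.38 in WT replicate 6, and by 3.01, 0.78 and 0.81 in KO replicates 1, 5 and 6, while the other hearts lay between -0.60 and -0.0050. The highest were WT replicate 2 and KO replicate 1, with Myl7, the atrial light chain, at 7.19 and 7.09. Myl4, Sln and Dkk3 of the list were also highest in these hearts, but Nppa and Bmp10 did not share this. Nppa, at 5.58 and 5.08, lay inside the range of the other hearts. Bmp10 was at -0.12 in WT replicate 2 and had no value in KO replicate 1. In KO replicates 5 and 6, Dkk3 was at 0.001 and -0.24. In KO replicate 1 Fasn was at -1.20, Scd1 at -1.87 and Elovl6 at -2.35, and in WT replicate 6 they were at -1.50, -1.49 and -2.06. Over the 10 hearts other than WT replicate 2 and KO replicate 6, these genes ranged from -1.63 to -1.01, from -2.00 to -0.92 and from -2.35 to -1.32.

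**Figure D4:**
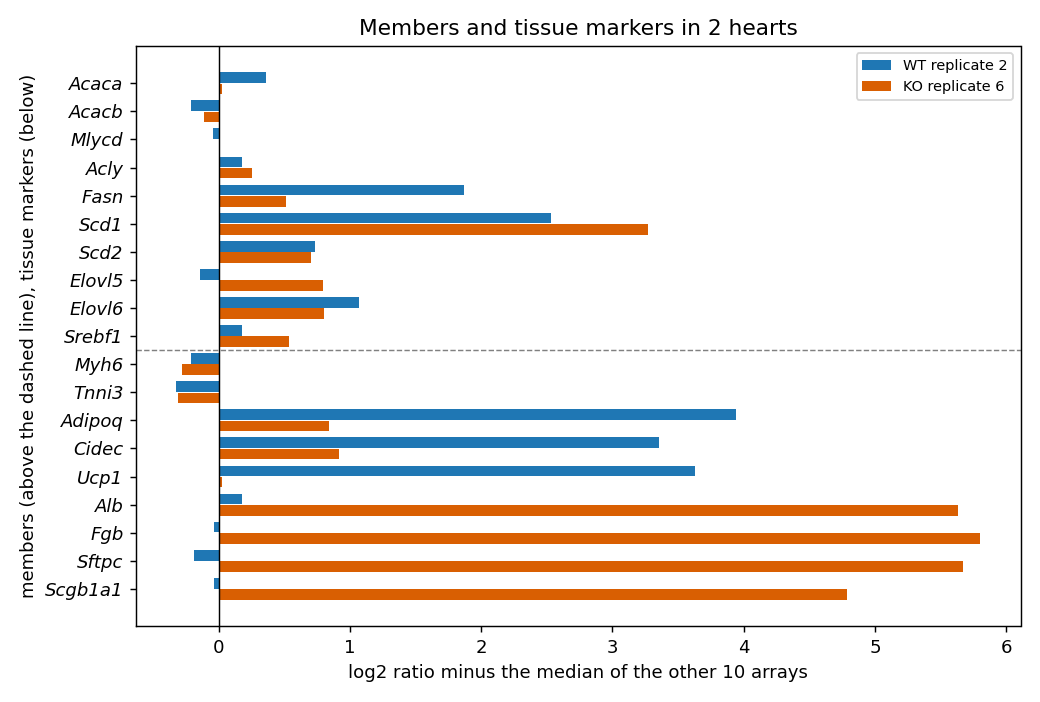
Log2 ratio in WT replicate 2 and KO replicate 6 minus the median of the other 10 arrays (horizontal axis) for the members (above the dashed line) and tissue markers (below it). Scd1 is high in both hearts (2.54 and 3.27) and Fasn mainly in WT replicate 2 (1.87), beside the fat genes Adipoq, Cidec and Ucp1 in WT replicate 2 and the liver and lung genes Alb, Fgb, Sftpc and Scgb1a1 in KO replicate 6. Fabp4, Cidea, Plin4 and Lep of the fat-cell list, which did not stand apart in these hearts, are not drawn.

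Differences between members within an array remove what an array's scaling shares. Acacb minus Acaca, the paired carboxylases, averaged 2.59 ± 0.42 over WT and 2.64 ± 0.27 over KO hearts (SD, n = 6 each). Permuting genotype within dye orientation gave 400 arrangements and a two-sided exact permutation p of 0.80 for their difference of 0.052, where 0.005 was the smallest p possible. Acacb minus Mlycd, the genes that make and remove malonyl-CoA, averaged -0.94 ± 0.18 over WT (SD, n = 6) and -0.80 ± 0.25 over KO hearts (SD, n = 5). Their fitted difference was 0.13 (exact permutation p = 0.395, 200 arrangements). Scd1 minus Scd2 averaged 3.20 ± 0.72 over WT (SD, n = 5) and 3.46 ± 1.27 over KO hearts (SD, n = 4; difference 0.19, exact permutation p = 0.817). That pair had 60 arrangements, so few that it could not pass by itself after adjustment over 3 pairs. Adjusted over the 3 pairs, each exact permutation p was 0.817. These are differences in ratio to the reference, so they do not compare the amounts of the transcripts.

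No gene around the members passed either. Of 60 genes on 6 lists of neighbouring pathway steps, 56 were measured, and 0 passed after adjustment in limma. An unadjusted p under 0.05 was found for 2 of them, and for 5.33% of all features. By sign 28 were higher and 28 lower in KO, where 49.7% of all features were higher. The median difference was -0.0028 against -0.00090 for all features. G6pdx, Elovl4, Nr1h2 and Hsd17b8 were not measured.

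The carnitine palmitoyltransferases, the enzymes that malonyl-CoA inhibits, were the list of largest median (0.18, 3 of 3 higher by sign, 0 passed). Cpt1a, the liver isoform, which heart also expresses, differed by 0.27 ± 0.11 (SE, unadjusted p = 0.0330, limma adjusted p = 0.911). Cpt1b, the muscle isoform, was at 4.96 over the reference in WT hearts and differed by 0.18 ± 0.15, and Cpt1c by 0.14 ± 0.16 (SE, limma adjusted p = 0.952 and 0.960). In KO replicate 6 Cpt1a lay 0.62 above the median of the other 10 hearts.

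Other elongation and desaturation enzymes numbered 14 measured of 15, with 9 higher and 5 lower by sign and 0 passed. Fads3 differed by 0.19 ± 0.088 (SE, unadjusted p = 0.0469, limma adjusted p = 0.930). Fads1, the delta-5 desaturase of polyunsaturated chains, differed by 0.44 ± 0.21 and Hacd3, a dehydratase of the elongation cycle, by 0.25 ± 0.14 (SE, limma adjusted p = 0.935 and 0.939). KO replicate 6 lay above the other hearts' median by 0.78 for Fads1 and 0.86 for Hacd3. For Fads1 the highest heart was KO replicate 3, at -0.66 against -1.02 in KO replicate 6.

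Of the 14 measured genes of SREBP, LXR and ChREBP control, 6 were higher and 8 lower by sign, and 0 passed. Scap, the escort protein of SREBP, differed by 0.13 ± 0.077, Usf2 by 0.18 ± 0.11 and Mid1 by -0.17 ± 0.10 (SE, each limma adjusted p = 0.942). Of the 9 measured genes that supply acetyl-CoA, citrate and NADPH, 3 were higher, 6 lower and 0 passed. The mitochondrial acetyl-CoA synthetase Acss1 differed by -0.17 ± 0.12, malic enzyme Me1 by 0.11 ± 0.082 and citrate synthase Cs by -0.10 ± 0.11 (SE, limma adjusted p = 0.942, 0.942 and 0.960).

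Other biotin carboxylases and biotin handling genes (8 of 8 measured) were higher in 5 cases and lower in 3, and 0 passed. Mccc2, a subunit of methylcrotonyl-CoA carboxylase, differed by 0.27 ± 0.13, biotinidase Btd by 0.18 ± 0.10 and pyruvate carboxylase Pcx by -0.11 ± 0.11 (SE, limma adjusted p = 0.930, 0.939 and 0.952). In the separate mitochondrial pathway of fatty acid synthesis, all 8 genes measured of 9 were above the reference in WT hearts, where 21.9% of all features were. In that list 2 were higher and 6 lower by sign, 0 passed, and Cbr4, Oxsm and Mcat differed by -0.19 ± 0.12, -0.14 ± 0.12 and -0.13 ± 0.12 (SE, limma adjusted p = 0.942, 0.952 and 0.952).

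**Figure D5:**
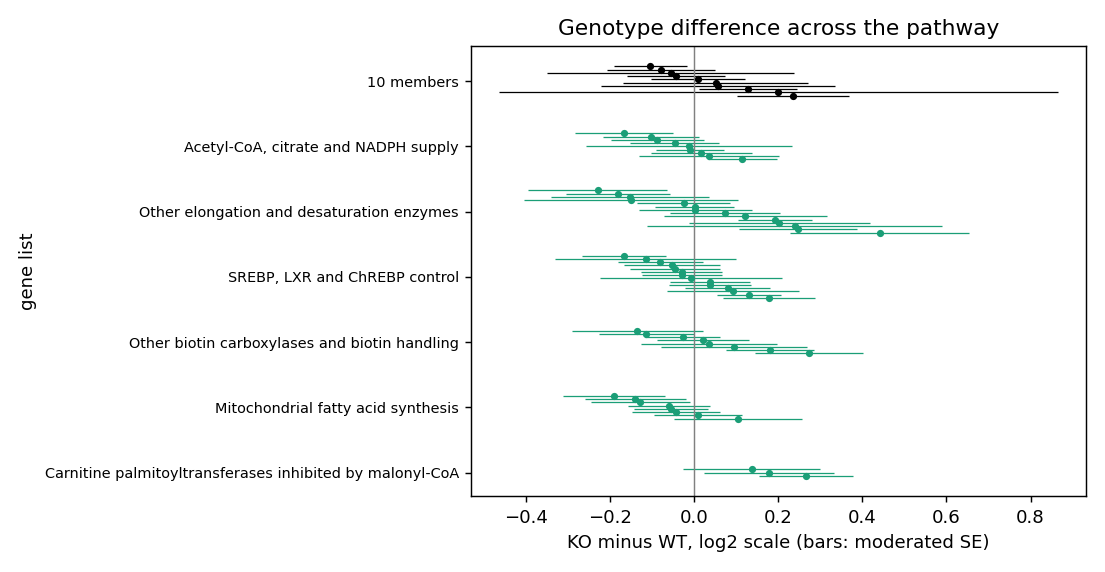
KO minus WT on the log2 scale (horizontal axis, bars for the moderated standard error) for the 10 members and the 56 measured genes of 6 lists of related steps (vertical axis, 1 point per gene). The points scatter on both sides of 0 except for the 3 carnitine palmitoyltransferases, and no gene shown passed after adjustment.

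The features whose pattern was most like that of a member were sought by Pearson correlation over the 12 arrays with the dye mean removed, among 7426 named genes measured on all arrays. These arrays share scaling and tissue makeup, and the values are a description. Fasn was most like Cidec (r = 0.944, rho = 0.601), but without WT replicate 2 and KO replicate 6 that r was 0.410. Odf2l (r = 0.899) and Anxa7 (r = 0.892) came next for Fasn, with r of 0.816 and 0.669 without those hearts. Acaca was most like Hyal1, Abca3 and Bnip1 (r = 0.900, 0.875 and 0.871), with r of 0.797, 0.855 and 0.797 without WT replicates 3 and 6, the hearts farthest from its median. Acacb was most like Akip1, Cop1 and Esrra, the oestrogen-related receptor alpha (r = 0.895, 0.889 and 0.877), with r of 0.776, 0.713 and 0.853 without WT replicate 2 and KO replicate 4.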

How the data were processed

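Total RNA of 12 ventricles was hybridised on 2-colour arrays against a common reference. The authors deposited 1 signed log ratio per probe and array, read here as log2; the base is not stated and natural logarithms cannot be told apart from the values. Background correction, normalization and the rule behind empty cells are not given in the sources used here. Array medians of -0.029 to 0.068 and correlations of at least 0.835 between arrays of opposite dye showed values already centred and turned in 1 direction, heart over reference. No pair of arrays shared more than 0.186% identical values.

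The platform annotation gave 31700 probes 1 symbol, 47 several and 9427 none. Entrez identifiers of 31564 probes matched RefSeq of GRCm38.p6. Probes needed at least 2 values in each combination of genotype and dye, which kept 36826. Probes of a gene were averaged by an additive model with probe and array effects, whose array effect is the gene's value. The model of genotype and dye was run on the 12 arrays with lmFit and eBayes of limma 3.58.1 (R 4.3.3), and p-values were adjusted by Benjamini-Hochberg over 25821 features. Levels were tested against 0 in the same fit. Differences within arrays used exact permutation tests. Standard errors of KO minus WT had a median of 0.13, and the number of arrays limits the precision. On simulated data with 25821 features and normal noise, 50 features each were changed by 0.5, 1, 1.5 and 2 (log2 scale) at once. The KO minus WT fit recovered 15 of 50 changed by 0.5 and 45 of 50 changed by 1. So many changed features make the adjusted cutoff more lenient than in these data, where 1 feature passed. The changed features were drawn from all features, so these counts do not hold for members of large spread, such as Fasn and Scd1.

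The members and the gene lists were chosen with earlier results of these data known. Named genes were the 10 members and up to 3 genes of smallest p per pathway list. Also named were the 3 genes most correlated with Acaca, Acacb and Fasn, and the marker genes where an array stood apart. Other genes named were chosen after their values were seen. They were Prkaa2, Hyi, Lep, Fabp4, Cidea, Plin4, Pln, Tnni3, Ttn, Myl3, Mybpc3, Ckm, Tnnt2, Ryr2, Myl7, Myl4, Sln, Dkk3, Nppa, Bmp10 and Ahsg. Alternatives changed the dye term, the scaling, array weights, the averaging of probes, the filters and the arrays used; leaving out WT replicate 2 and KO replicate 6 together was chosen after seeing the data. Python 3.11.15, pandas 2.3.3 and matplotlib 3.10.9 prepared the sequences and plots.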

Additional observations from a re-analysis of the deposited data

Results flagged for a closer look

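Of 42 groups of member or probe values, 6 held a sample far from the others by Dixon's 95% criterion. Chance meets it in about 1 independent group in 20, but these groups are not independent. Acaca, Acacb, Fasn and Elovl5 enter once by gene and again by probe, so 6 of 42 cannot be set against that rate. All 6 groups involve WT replicate 2 or KO replicate 6. Fasn was at 0.66 in WT replicate 2, where the nearest of the other 5 WT hearts was at -1.13. Scd1 was at 0.82 in WT replicate 2, with the nearest WT heart at -1.46. Probe 30842 of Fasn was at 0.63 in WT replicate 2, with the nearest at -1.90. Elovl5 was at 0.070 in KO replicate 6, with the nearest KO heart at -0.58, and its probe 29536 was at 0.13, with the nearest at -0.66. Probe 28856 of Acaca was at -0.54 in KO replicate 6, with the nearest at -0.18. WT replicate 2 was also the heart with the highest Adipoq (3.93) and Cidec (3.45) of the fat-cell list, but not the highest Fabp4, Cidea, Plin4 or Lep. KO replicate 6 was the highest heart for the liver and lung lists. Adipoq (0.83) and Cidec (1.01) were also high there, to a lower level than in WT replicate 2. The part of RNA of these tissues in the flagged values was not tested. Scd1 at 1.55 in KO replicate 6 had only 4 other KO hearts to compare with, of which KO replicate 3 at -0.92 was nearest, and it did not meet the criterion.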

How the results depend on the processing

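No member passed in any of 245 combinations of member and setting; 34 turned the sign of KO minus WT and 211 kept it. Acly, Elovl5, Srebf1 and Mlycd kept their sign in all their 25, 25, 25 and 24 settings, but their size moved: -0.17 to -0.042 for Acly, 0.0094 to 0.24 for Elovl5, 0.13 to 0.34 for Srebf1 and -0.22 to -0.0070 for Mlycd. Single arrays moved Elovl5 to 0.020 (without KO replicate 6), Srebf1 to 0.14 and 0.34 (without KO replicates 6 and 5) and Mlycd to -0.0071 and -0.0070 (without WT or KO replicate 1). The cause of the turns was not tested. With quantile normalization Acacb was -0.067, and with array weights Scd1 was -0.063 and Scd2 -0.029. With WT replicate 2 and KO replicates 1 and 6 left out for their markers of other tissues, Acaca was 0.023, Acacb -0.13, Fasn 0.18, Scd1 -0.046, Scd2 -0.0027 and Acacb minus Acaca -0.15. The dye orientations had opposite signs for 5 members: with heart RNA in Cy3 alone, which holds WT replicate 2, Scd1 was -0.80, Scd2 -0.42, Elovl6 -0.59, Fasn -0.58 and Acacb 0.17, and with Cy5 alone, which holds KO replicate 6, they were 1.45, 0.37, 0.58, 0.47 and -0.15. Without WT replicate 2 and KO replicate 6, Acaca was 3.04e-05, Acacb -0.098, Fasn 0.15, Scd1 -0.11 and Acacb minus Acaca -0.098. Leaving out single arrays gave -0.12 to 0.013 for Acaca, -0.063 to 0.070 for Acacb, -0.19 (without KO replicate 6) to 0.27 (without WT replicate 2) for Fasn, -0.63 to 0.73 for Scd1, -0.14 to 0.21 for Scd2 and -0.13 to 0.35 for Elovl6, the last 3 with the same arrays at the ends. For Acacb minus Acaca it gave -0.059 (without WT replicate 2) to 0.20 (without WT replicate 3), and for Scd1 minus Scd2 -0.44 (without KO replicate 6) to 0.82 (without KO replicate 5).

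The 1 feature that passed among all became 2 with quantile normalization, with features measured on all 12 arrays, without those 3 arrays and with Cy3 alone, 3 with a mean absolute ratio of at least 0.5, 0 with Cy5 alone, 4 without WT replicate 2 and KO replicate 6, and 1 to 3 without single arrays (3 without KO replicate 6). A plain mean over probes gave 0.40 for Acacb, whose probes differ and are not on every array. Calls of level against the reference that were lost were Fasn in WT with Cy3 alone (-0.54, limma adjusted p = 0.238) and Elovl5 in KO with Cy5 alone (-0.36, limma adjusted p = 0.0816), beside those of Acaca and Scd1. Replicate numbers did not pair the hearts: deviations of same-numbered hearts correlated at -0.232 to 0.022. With the replicate block in place of the dye term, 1 feature and 0 members passed, with Scd2 at 0.26 ± 0.15 (SE, limma adjusted p = 0.969).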
